A study of Mus musculus with 22 samples.

Results

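The Toll-like receptors and the genes of lipopolysaccharide (LPS) sensing were followed through mouse liver, as the 10 genes Tlr2, Tlr3, Tlr4, Tlr5, Tlr12, Cd14, Ly96, Lbp, Myd88 and Nod1. They were chosen by symbol from the 23909 named genes of the deposited expression table, and all 10 were found in it. Toll-like receptors are membrane receptors that bind molecules shared by many microbes. Most of them signal through the adaptor MyD88 to NF-κB and to inflammatory genes. For LPS, the outer membrane lipid of Gram-negative bacteria, the serum protein LBP hands single molecules to CD14, which passes them to MD-2 (the product of Ly96) held by TLR4. The liver receives gut-derived bacterial products through the portal vein, its Kupffer cells (resident macrophages) and sinusoidal endothelium clear them, and its hepatocytes secrete LBP into the blood.

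The samples were livers of male C57BL/6 mice, all labelled as fasted, in 5 groups. JAX (4 libraries) and TAC (4) came from mice of the vendors Jackson and Taconic with their own gut microbes, and GF (4) from germ-free mice. GF_JAX (5) and GF_TAC (5) came from germ-free mice given cecal material of JAX or TAC mice and collected 4 weeks later after a 16 h overnight fast. No genetic change is labelled in any group. For JAX, TAC and GF no hours of fasting and for no group an age is stated, and whether each library stands for its own animal is not stated. The p-values then speak of spread among libraries, which may be technical. The groups put the question of how the presence, the source and the transfer of a gut microbiota go with liver RNA.

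Values are RPKM, read counts scaled to transcript length and library depth, so levels are per length. Differences are on the log2(RPKM + 1) scale with their standard error, which understates the change of genes at low levels. A gene was tested with limma where it reached 1 RPKM in at least 4 of the 22 libraries (12264 genes), and it was said to rise or fall at a Benjamini-Hochberg adjusted p under 0.05 over all genes tested. Library depth, read from the steps between low values, ranged from about 1365000 to 3834000 counted reads. The libraries also differed in how RPKM depended on transcript length: the slope of each library's deviation from the gene mean on log2 length lay between 0.0562 and 0.187 for 10 libraries, which were every JAX and TAC library with GF_JAX 1 and GF_JAX 4. The remaining 12 had slopes below 0, from -0.199 to -0.00800. Vendor mice and germ-free mice therefore differ also in this slope, and the microbiota and the library type cannot be told apart in those comparisons except through GF_JAX, which holds libraries of both types. The JAX and TAC mice also came from different vendors, and the recipients were germ-free mice before. Origin of the mice therefore cannot be told apart from the microbiota where vendor groups are compared with each other, with GF or with recipients. Hepatocyte markers summed to between 3455 and 8243 RPKM in every library and markers of Kupffer cells to between 149.7 and 441 RPKM, as a liver holds. These are bulk livers, in which fewer cells of a type and less RNA per cell cannot be told apart.

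The profilin receptor gene Tlr12 and the flagellin receptor gene Tlr5 were the members that differed most between groups. Tlr12 was at 28.5 RPKM in JAX, 13.2 in TAC and 5.60 in GF, and in mice given JAX cecal material it was at 5.98 RPKM, close to the germ-free level. Tlr5 was at 6.30 RPKM in JAX, 4.59 in TAC, 1.90 in GF, 4.19 in GF_JAX and 4.12 in GF_TAC. Of the LPS sensing genes, Lbp fell and Ly96 rose in GF_TAC against TAC, groups that differ also in library type. With library type as a term in the fit neither difference passed, and that of Ly96 turned in sign. Cd14, Tlr2 and Tlr3 passed the test in none of the 9 comparisons, and Tlr4, at 0.641 RPKM or less in every library, was too low to be tested.

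**Figure D1:**
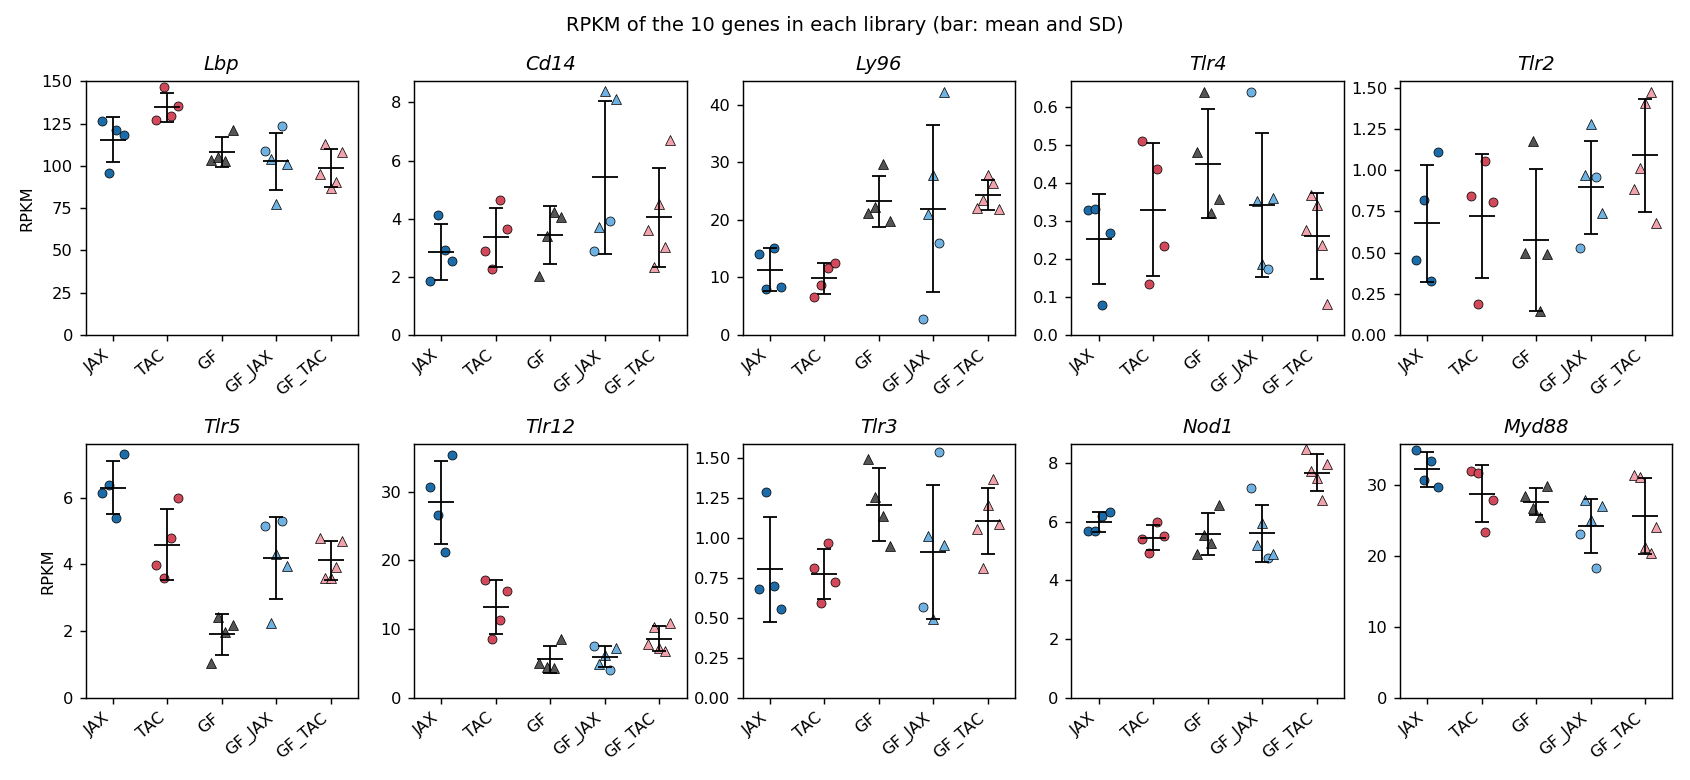
RPKM of each of the 10 genes (y axis, linear, from 0) in every library, by group. Circles are libraries with a positive length slope, triangles those with a negative one, and bars give mean and SD. Tlr12 is highest in the 4 JAX libraries (21.2 to 35.4 RPKM), and Tlr5 is lowest in the GF libraries (1.03 to 2.43 RPKM, with GF_JAX 2 at 2.25 among them).

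Lbp, the acute phase protein that extracts LPS from bacterial membranes, was by far the most abundant member. Its RPKM was 126, 96.1, 121 and 118 in JAX, 127, 147, 129.8 and 135 in TAC, and 104, 105, 103 and 121 in GF. In recipients it was 109, 104, 77.2, 124 and 101 in GF_JAX and 95.3, 113, 87.1, 90.6 and 108 in GF_TAC. Every TAC library stood above every GF_TAC library and above every GF library, and the TAC and JAX ranges did not overlap either. The mean of 98.8 ± 11.2 RPKM (SD, n = 5) in GF_TAC lay below that of 134.7 ± 8.65 (n = 4) in TAC, a fall of -0.45 ± 0.11 log2 (limma, adjusted p = 0.00841). The same direction in GF against TAC (-0.31 ± 0.12, adjusted p = 0.0588) and the higher value in TAC than in JAX (0.23 ± 0.12, adjusted p = 0.608) missed the threshold. With library type as a term the GF_TAC difference from TAC was -0.14 (adjusted p = 0.748), and log2(RPKM + 1) of Lbp correlated with the length slope at r = 0.62 over the 22 libraries.

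Ly96 encodes MD-2, the protein that holds the lipid of LPS in a pocket on TLR4. Its RPKM was 14.2, 7.94, 15.2 and 8.26 in JAX, 6.61, 8.69, 11.6 and 12.5 in TAC, and 21.1, 22.3, 29.7 and 19.8 in GF. In GF_TAC it was 21.99, 23.5, 27.9, 26.3 and 21.9 RPKM. GF and GF_TAC libraries were all above those of both vendors. GF_JAX spanned the whole range at 2.74, 21.1, 27.8, 16.0 and 42.2 RPKM, and its lowest values, 2.74 and 16.0, were those of GF_JAX 1 and GF_JAX 4, the libraries with a positive length slope. Ly96 rose by 1.25 ± 0.43 log2 in GF_TAC against TAC (limma, adjusted p = 0.0412), while the differences of GF from JAX (1.01 ± 0.46, adjusted p = 0.109) and from TAC (1.18 ± 0.46, adjusted p = 0.0635) did not pass. Without GF_JAX 1 and GF_JAX 4, whose spread enters every comparison of the fit, both passed (adjusted p = 0.00264 and 0.000827). With library type as a term, the sign of all of these turned, to -0.67 ± 0.53 in GF_TAC against TAC (adjusted p = 0.593), -0.91 in GF against JAX (adjusted p = 0.463) and -0.74 in GF against TAC (adjusted p = 0.636).

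The transcript of Ly96 is short at 632 bases, and genes under 800 bases had higher values in GF than in JAX as a class, with a median difference of 0.46 log2 over 335 genes, against -0.14 over the 5529 genes of 3000 bases or more. The length slope correlated with log2(RPKM + 1) of Ly96 at r = -0.78 over the 22 libraries. Kupffer cell markers also tended to be higher in germ-free and recipient livers than in vendor livers, where library type differs too. Of 12 listed genes 11 were in the table, and none of them was at 0 throughout any group. Their sum ranged from 149.7 to 307 RPKM in JAX, 196 to 308 in TAC and 299 to 407 in GF. In recipients it ranged from 319 to 441 RPKM in GF_JAX and 223 to 400 in GF_TAC. Of these 11 markers, 9 rose in GF against JAX (11.7% of all genes rose there), 3 in GF against TAC (11.1%), 7 in GF_JAX against JAX (7.37%) and 2 in GF_TAC against TAC (11.1%), and none fell in these comparisons. Their part in the Ly96 values was not tested.

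Cd14, the LPS co-receptor of macrophages that hepatocytes also make, was at 1.86, 4.12, 2.91 and 2.53 RPKM in JAX, 2.89, 2.28, 4.63 and 3.64 in TAC, and 2.05, 3.42, 4.25 and 4.04 in GF. In GF_JAX it was at 2.90, 3.73, 8.41, 3.93 and 8.13 RPKM and in GF_TAC at 3.63, 2.34, 4.499, 3.03 and 6.72. The 3 highest values were all in recipients, and all pairs of groups overlapped. The difference nearest to the threshold was that of GF_JAX from JAX (0.67 ± 0.28 log2, limma, adjusted p = 0.107), and the high values of GF_JAX 3 and GF_JAX 5 stand on 16 reads each. Without GF_JAX 1 it passed (adjusted p = 0.0426), and without GF_JAX 3 it was 0.51 (adjusted p = 0.255).

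Tlr4, the signalling receptor for LPS, was counted in 1 to 9 reads per library and 68 reads in all. The groups held 12 reads in JAX (95% exact Poisson interval 6.20 to 20.96), 12 in TAC (6.20 to 20.96), 18 in GF (10.7 to 28.4), 13 in GF_JAX (6.92 to 22.2) and 13 in GF_TAC (6.92 to 22.2), intervals that cover counting error only. Mean RPKM was 0.252 ± 0.119 in JAX, 0.330 ± 0.175 in TAC, 0.451 ± 0.144 in GF, 0.343 ± 0.189 in GF_JAX and 0.261 ± 0.113 in GF_TAC (SD, n = 4 or 5). A difference between groups was not detectable at this depth. Its partner MD-2 was read at much higher levels per length in the same livers (6.61 RPKM or more in all libraries but GF_JAX 1).

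Tlr12 encodes a receptor that in mice binds profilin of Toxoplasma gondii, together with TLR11. Its RPKM was 30.7, 26.6, 21.2 and 35.4 in JAX, 17.2, 8.59, 11.3 and 15.5 in TAC, and 5.04, 4.46, 4.35 and 8.57 in GF. Every JAX library was above every TAC library, and every TAC library above every GF library, the lowest TAC value (8.59) only just above the highest GF value (8.57). Tlr12 fell in TAC against JAX (-1.08 ± 0.23 log2, limma, adjusted p = 0.0414), the 1 member of the 9 tested that passed there, where 0.294% of all genes tested did. The vendor call is close to the threshold: among the 22 fits that leave out 1 library it passed in 13, and it was lost without any of JAX 1, JAX 2, JAX 4, TAC 2, TAC 3, TAC 4, GF 1, GF_TAC 1 and GF_TAC 3 (adjusted p up to 0.216). In those 22 fits the difference stayed between -1.21 and -0.91 log2.

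Between GF and JAX the difference was larger than that between the vendors, and between GF and TAC it was of similar size. Tlr12 fell in GF by -2.18 ± 0.23 log2 against JAX (limma, adjusted p = 3.98e-06) and by -1.10 ± 0.23 against TAC (adjusted p = 0.00316). Tlr12 and Tlr5 were the members that passed in GF against JAX, 2 of 9 where 24% of all genes passed, and again in GF against TAC, 2 of 9 where 24.3% did. The share of members called is thus close to that of all genes, and the mean ratio for Tlr12, 5.08 between JAX and GF and 2.35 between TAC and GF, is the size of this 1 gene's difference.

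In recipients Tlr12 was near the germ-free level with JAX material and between GF and TAC with TAC material. RPKM was 7.55, 4.86, 6.17, 4.06 and 7.29 in GF_JAX and 7.77, 10.3, 7.26, 6.87 and 10.9 in GF_TAC. All GF_JAX libraries were below all JAX libraries and overlapped GF, and GF_TAC overlapped both GF and TAC. Against its donor's vendor group, GF_JAX was lower by -2.08 ± 0.22 log2 (limma, adjusted p = 4.34e-06), whereas GF_TAC differed from TAC by -0.53 ± 0.22 (adjusted p = 0.0765). Against GF, the differences were 0.10 ± 0.22 in GF_JAX (adjusted p = 0.856) and 0.56 ± 0.22 in GF_TAC (adjusted p = 0.442). The order of the sources was also turned: among vendor mice JAX was the higher, while among recipients the mean of GF_TAC (8.61 ± 1.83 RPKM, SD, n = 5) was above that of GF_JAX (5.98 ± 1.51, n = 5; 0.47 ± 0.20 log2, adjusted p = 0.330). The interaction, the donor difference in recipients minus the vendor difference, was 1.55 ± 0.31 log2 (adjusted p = 0.0115), and Tlr12 was the 1 member of 9 that passed it, where 1.48% of all genes did. It passed in all 22 fits without 1 library, at 1.38 to 1.68 log2, as did the falls in GF and GF_JAX against JAX.

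The Tlr12 values within 1 library type kept the JAX difference. GF_JAX 1 and GF_JAX 4, with the same positive slope as JAX, were at 7.55 and 4.06 RPKM, below all 4 JAX libraries and below all 4 TAC libraries. A fit that kept only these 2 recipients gave -2.14 ± 0.29 log2 against JAX (limma, adjusted p = 0.000302). With library type as a term in the fit of all libraries, GF against JAX was -2.28 ± 0.38 (adjusted p = 0.00387), and GF against TAC was -1.20 ± 0.38 but no longer passed (adjusted p = 0.164). That term is estimated from the 2 positive and 3 negative GF_JAX libraries alone.

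Tlr5 binds flagellin, the protein of bacterial flagella, and hepatocytes are among the cells known to express it. Its RPKM was 6.14, 6.37, 5.40 and 7.30 in JAX, 3.99, 3.60, 4.79 and 5.99 in TAC, and 1.03, 2.43, 1.96 and 2.18 in GF. No GF library reached any vendor library, and JAX and TAC overlapped through TAC 4 (5.99). In GF_JAX it was 5.15, 2.25, 4.30, 5.29 and 3.94 RPKM and in GF_TAC 4.80, 3.59, 3.60, 3.91 and 4.69. All GF_TAC libraries were above all GF libraries, and in GF_JAX all but GF_JAX 2 were. Tlr5 fell in GF by -1.35 ± 0.20 log2 against JAX (limma, adjusted p = 0.000139) and by -0.96 ± 0.20 against TAC (adjusted p = 0.00294).

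Mean Tlr5 was higher in both recipient groups than in GF. It rose in GF_JAX against GF by 0.83 ± 0.19 log2 (limma, adjusted p = 0.0470), the 1 member of 9 that passed, where 0.612% of all genes did. In GF_TAC against GF the difference was as large (0.84 ± 0.19) but did not pass (adjusted p = 0.0808). There none of the 9 members passed with limma, where 0.204% of all genes did, and 4 had an unadjusted p under 0.05 (Tlr5, Tlr12, Tlr2 and Nod1), where 8.49% of all genes did. The rise in GF_JAX is close to the threshold, and 18 of 22 fits without 1 library lost it (adjusted p up to 0.165). GF_JAX and GF_TAC differed by 0.01 ± 0.18 log2 (adjusted p = 0.989). Against their donors' groups the differences were -0.53 ± 0.19 in GF_JAX (adjusted p = 0.0640) and -0.12 ± 0.19 in GF_TAC (adjusted p = 0.668).

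Library type moved with Tlr5. The highest GF_JAX values, 5.15 and 5.29 RPKM, were those of GF_JAX 1 and GF_JAX 4, and log2(RPKM + 1) of Tlr5 correlated with the length slope at r = 0.68 over 22 libraries. Among libraries of negative slope alone, GF lay at 1.03 to 2.43 RPKM, GF_JAX at 2.25 to 4.30 and GF_TAC at 3.59 to 4.80. Among those of positive slope, GF_JAX 1 and GF_JAX 4 differed from JAX by -0.23 ± 0.20 log2 (limma, adjusted p = 0.538). With library type as a term, Tlr5 in GF was at -0.86 ± 0.29 log2 against JAX (adjusted p = 0.149) and -0.46 ± 0.29 against TAC (adjusted p = 0.565), so that neither fall passed. The rise of Tlr5 in GF_JAX against GF did not pass with the same term. That term gave 0.84 in GF_TAC against GF, all of negative slope, with an adjusted p of 0.0387 (limma).

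**Figure D2:**
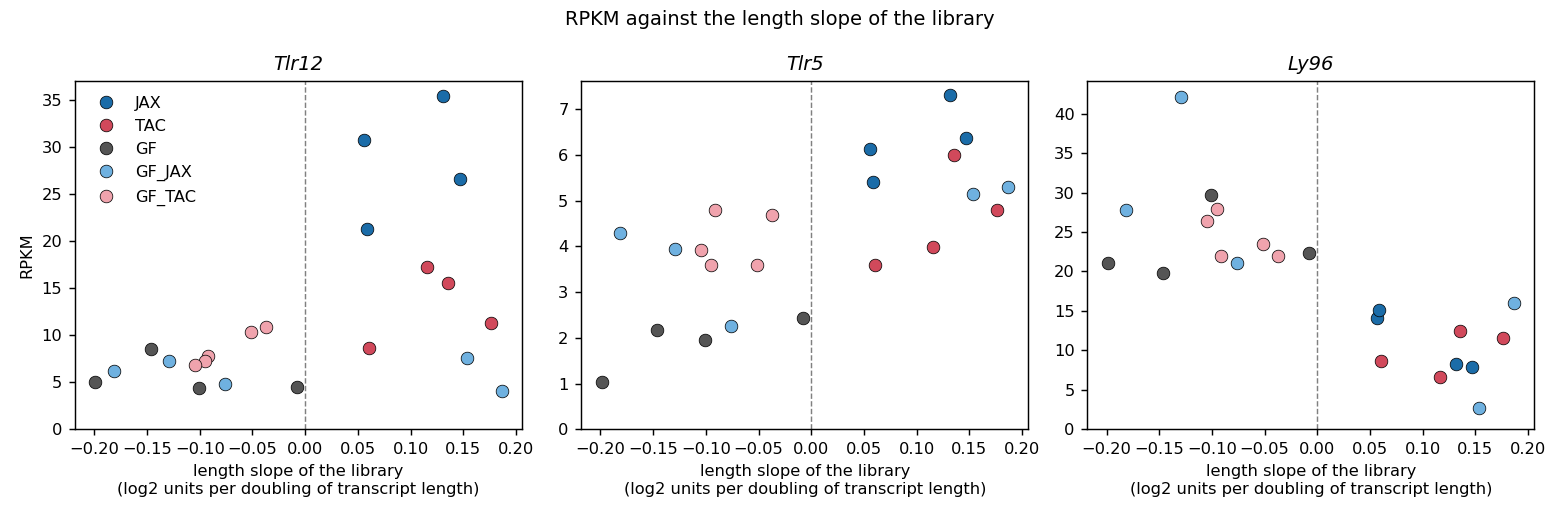
RPKM of Tlr12, Tlr5 and Ly96 (y axes, linear) against the length slope of the library (x axis, log2 units per doubling of transcript length, 0 for the mean library), 1 point per library, coloured by group. JAX and GF_JAX 1 and GF_JAX 4 lie together right of 0, where Tlr12 is at 21.2 to 35.4 RPKM in JAX and at 4.06 and 7.55 in those recipients. Ly96 lies at 16.0 RPKM or less right of 0 and at 19.8 or more left of it.

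The promoters of these receptor genes are given because Tlr12 and Tlr5 were the members that differed most between groups and Tlr2 is the classical NF-κB-inducible receptor that did not pass here. RefSeq promoters on GRCm38.p6 were given for 6 of the 10 members, and the 250 bases before the start are printed 5′ to 3′ on the gene's strand. Capitals mark matches on either strand to GGGNNNNNCC, a κB-like motif, or to CCAAT, the motif of NF-Y.
Tlr12, chr4:128618620-128618869, minus strand: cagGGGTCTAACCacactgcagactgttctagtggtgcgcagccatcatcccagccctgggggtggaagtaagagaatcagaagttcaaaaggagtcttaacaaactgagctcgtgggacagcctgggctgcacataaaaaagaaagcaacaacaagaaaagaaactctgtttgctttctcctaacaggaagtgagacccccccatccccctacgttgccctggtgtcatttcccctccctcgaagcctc
Tlr5, chr1:182954538-182954787, plus strand: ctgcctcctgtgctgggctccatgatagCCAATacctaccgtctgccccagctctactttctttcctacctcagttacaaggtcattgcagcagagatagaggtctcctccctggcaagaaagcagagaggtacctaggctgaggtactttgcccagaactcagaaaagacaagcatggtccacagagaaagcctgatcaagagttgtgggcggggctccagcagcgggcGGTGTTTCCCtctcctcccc
Tlr2, chr3:83841609-83841858, minus strand: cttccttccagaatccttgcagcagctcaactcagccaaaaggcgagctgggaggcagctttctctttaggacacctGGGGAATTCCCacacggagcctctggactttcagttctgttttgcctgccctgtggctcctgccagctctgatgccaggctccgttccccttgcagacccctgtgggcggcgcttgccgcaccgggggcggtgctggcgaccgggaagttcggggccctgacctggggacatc

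The κB-like letters were found once in the Tlr12 window, as GGGTCTAACC with its first base at -247, and once in that of Tlr5, as GGTGTTTCCC (the other strand) at -20. Tlr2 held a pair of overlapping matches at -173 and -172 in a single stretch, and the match at -172 is palindromic. Of 32851 RefSeq promoters cut to the same 250 bases, 45.8% held at least 1 such match, so its presence does not set these genes apart. CCAAT, found once in the Tlr5 window at -222, was in 33.8% of promoters. TGANTCA, the motif of AP-1, was in none of the windows printed and in 6.75% of promoters, and TTCNNNGAA, a motif of STAT factors, in none of them and in 7.02%. The 4 motifs do not overlap each other in these windows.

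Tlr2, the receptor for bacterial lipoproteins, lay between 0.148 and 1.47 RPKM, on 1 to 12 reads per library. Mean RPKM was 0.677 ± 0.356 in JAX, 0.722 ± 0.374 in TAC, 0.578 ± 0.430 in GF, 0.895 ± 0.280 in GF_JAX and 1.09 ± 0.342 in GF_TAC (SD, n = 4 or 5). All pairs of groups overlapped, and the largest difference, GF_TAC against GF, was 0.43 ± 0.20 log2 (limma, adjusted p = 0.578). Only 7 libraries reached 1 RPKM, 3 of them in GF_TAC. Tlr3, an endosomal receptor for double-stranded RNA, lay between 0.493 and 1.54 RPKM on 3 to 22 reads. It was at 0.805 ± 0.328 RPKM in JAX, 0.775 ± 0.156 in TAC and 1.21 ± 0.228 in GF (SD, n = 4), with overlap of all groups and no difference past the threshold (0.30 ± 0.17 log2 in GF against JAX, adjusted p = 0.183).

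Nod1, a cytosolic receptor for peptidoglycan fragments of mainly Gram-negative bacteria, had its highest group mean in GF_TAC. Its RPKM was 5.69, 5.68, 6.21 and 6.34 in JAX, 5.41, 4.94, 6.00 and 5.500 in TAC, and 4.89, 5.57, 5.27 and 6.57 in GF. In GF_JAX it was 7.14, 5.22, 5.96, 4.78 and 4.92 RPKM and in GF_TAC 8.47, 7.72, 7.51, 6.74 and 7.96. Every GF_TAC library was above every vendor and GF library, and all but GF_JAX 1 of the other recipients were below them too. Nod1 rose in GF_TAC against TAC by 0.42 ± 0.11 log2 (limma, adjusted p = 0.0105). Lbp, Ly96 and Nod1 were the 3 of 9 members that passed in GF_TAC against TAC, where 23.8% of all genes did. Of similar size, but short of the threshold, were the differences of GF_TAC from GF (0.40 ± 0.11, adjusted p = 0.222) and from GF_JAX (0.40 ± 0.10, adjusted p = 0.129). In GF_TAC against GF_JAX no member passed with limma, where 0.171% of all genes did, and 2 had an unadjusted p under 0.05 (Nod1 and Tlr12), where 13.3% of all genes did. The rise against TAC did not pass with library type as a term (0.53 ± 0.18, adjusted p = 0.159) or after rescaling to a common sum (0.40, adjusted p = 0.0527).

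Myd88, the adaptor shared by all Toll-like receptors but TLR3, varied little. Its RPKM was 35.1, 30.7, 33.5 and 29.8 in JAX, 32.1, 31.7, 23.5 and 27.9 in TAC, and 28.5, 26.9, 25.6 and 29.9 in GF. In GF_JAX it was 23.1, 27.9, 25.1, 18.3 and 27.0 RPKM and in GF_TAC 31.5, 31.2, 21.2, 20.4 and 24.1. GF_JAX libraries were all below the JAX libraries, and other pairs of groups overlapped. Myd88 fell in GF_JAX against JAX by -0.41 ± 0.13 log2 (limma, adjusted p = 0.0497), just inside the threshold, and with Tlr12 made 2 of 9 members there, where 13.4% of all genes passed. The 2 GF_JAX libraries with the same slope sign as JAX held the lowest values, 23.1 and 18.3 RPKM, and against JAX they differed by -0.62 ± 0.16 (adjusted p = 0.0275). Of the 22 fits without 1 library, 5 kept the call, and leaving out GF_JAX 1 and GF_JAX 4 together gave -0.26 (adjusted p = 0.144).

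**Figure D3:**
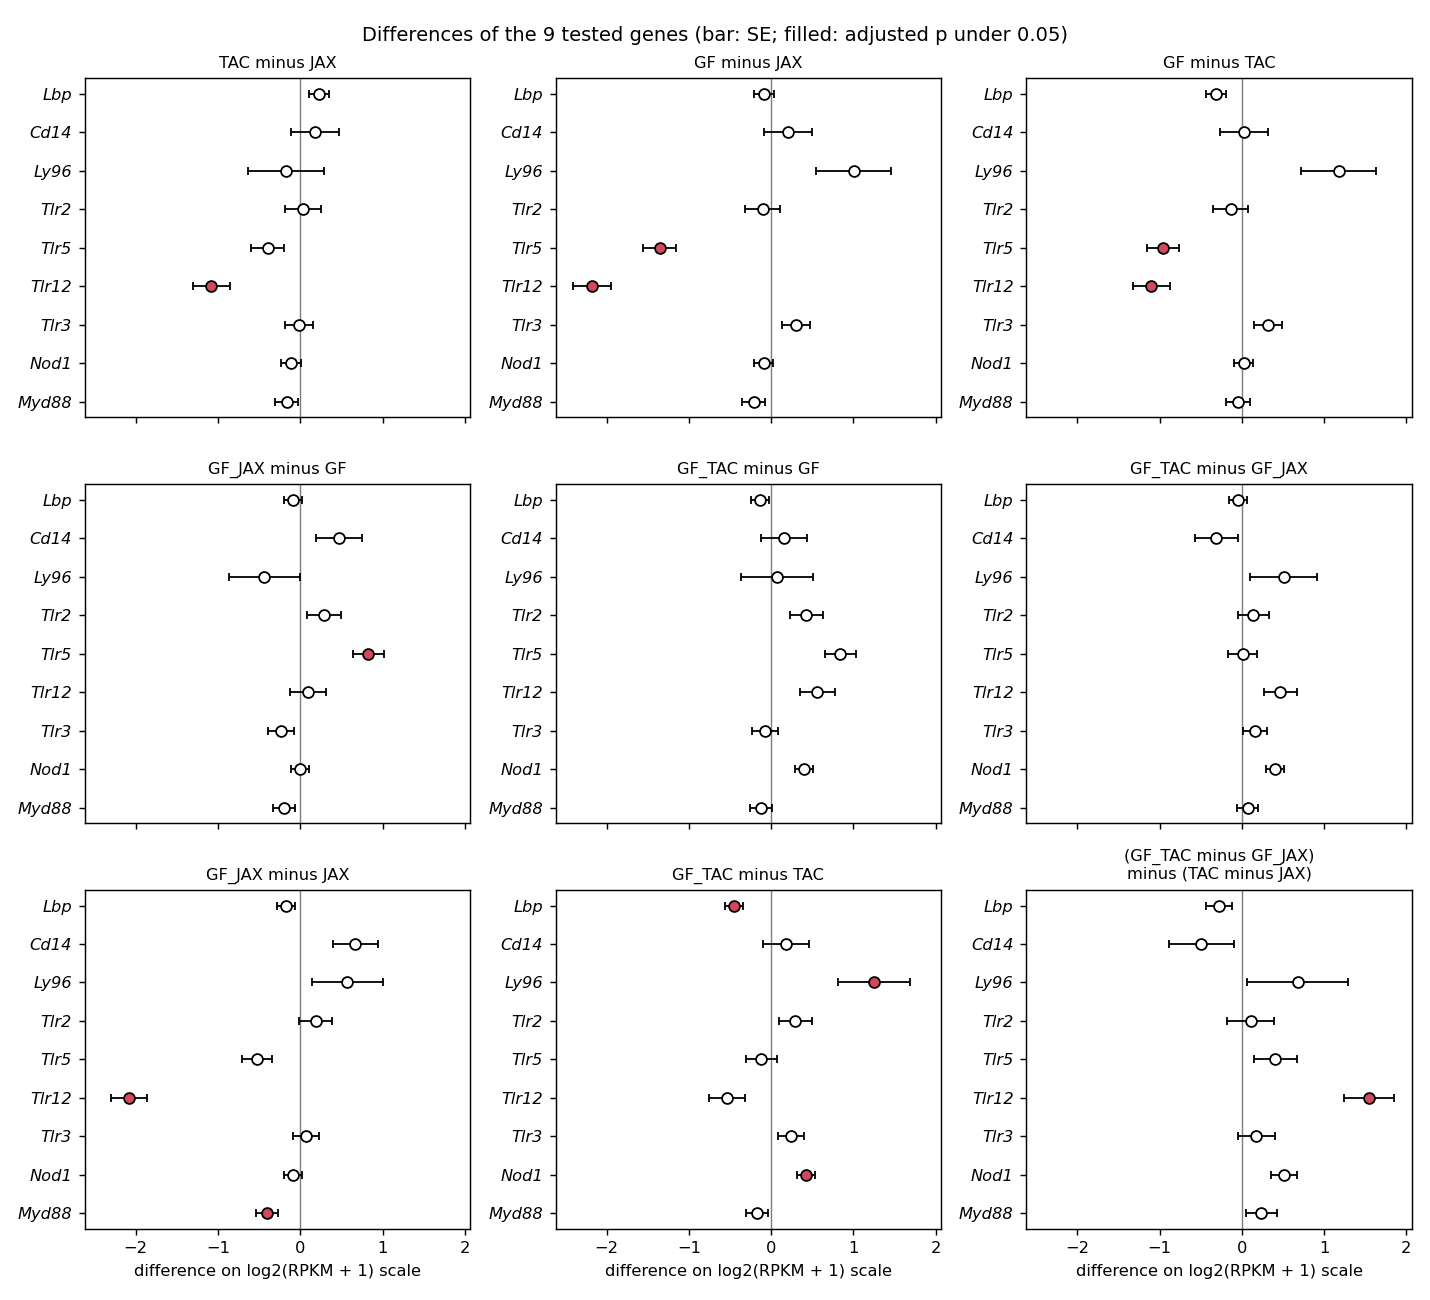
Differences of the 9 tested members in the 9 comparisons, as log2(RPKM + 1) differences (x axis) with SE bars. Filled points have an adjusted p under 0.05 over all 12264 genes tested. Tlr12 is filled in 5 panels (-1.08 to -2.18 log2 in 4 of them, 1.55 in the interaction), Tlr5 in 3, and Lbp, Ly96, Nod1 and Myd88 in 1 each.

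Over all comparisons the median difference of the 9 tested members ran from -0.11 log2 in TAC against JAX to 0.24 in the interaction, with medians over all tested genes between -0.02 and 0.03. Libraries of the groups did not overlap for 2 members in TAC against JAX (Tlr12 and Lbp), where 8.22% of all genes did not, for 3 in GF against JAX (27.9%) and for 4 in GF against TAC (25.8%). They did not overlap for 2 in GF_TAC against GF (Tlr5 and Nod1, against 3.79% of all genes), for 3 in GF_JAX against JAX (10.9%) and for 3 in GF_TAC against TAC (26.5%). None was separate in GF_JAX against GF (2.7%) or in GF_TAC against GF_JAX (1.81%). Comparisons that share a group, such as both falls of Tlr12 in GF, share its libraries.

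The reads behind these values set their precision. Lbp was read 14587 times over the 22 libraries (264 to 974 each), Myd88 2695 times (49 to 216), Tlr12 2172 times (19 to 327) and Tlr5 731 times (7 to 79). Cd14 had 276 reads (6 to 29), Tlr3 229, Tlr2 123 and Tlr4 68. For these 8 genes each value was a whole multiple of 1 read within 0.02 reads. Ly96 and Nod1 gave no whole multiples, and their reads, estimated from transcript length, were about 3.43 to 50.3 and 29.9 to 106 per library. The Tlr5 value of GF 1 rests on 7 reads and the Ly96 value of GF_JAX 1 on about 3.43.

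**Figure D4:**
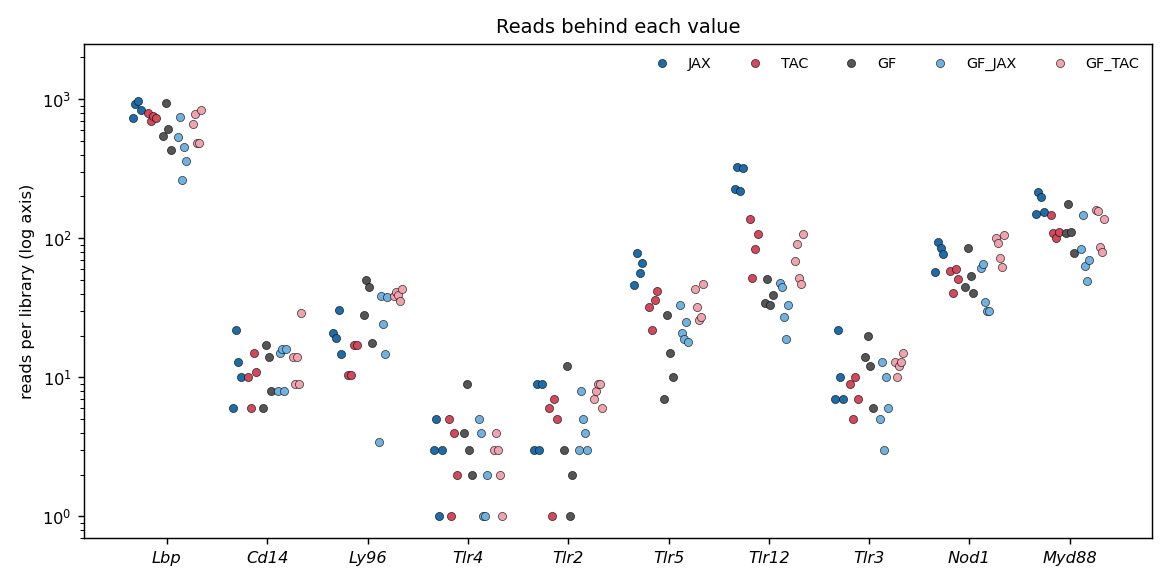
Reads per library behind each member's value (y axis, log scale), 1 point per library, coloured by group. Reads of Ly96 and Nod1 are estimates from transcript length and the others are whole reads. Tlr4 and Tlr2 lie at 1 to 12 reads, Lbp at 264 to 974.

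Between members, the order of mean RPKM over all libraries was Lbp (111), Myd88 (27.5), Ly96 (18.6), Tlr12 (11.9), Nod1 (6.11), Tlr5 (4.21), Cd14 (3.91), Tlr3 (0.966), Tlr2 (0.811) and Tlr4 (0.325). The order held at the ends in every group. In the middle it depended on the group: Tlr12 was above Ly96 in JAX and TAC and below it in the other groups, and Tlr5 was above Cd14 in JAX and below it in GF. Over all libraries the ranges of neighbours in this order overlapped, with the exception of Lbp (77.2 RPKM or more) above Myd88 (35.1 or less) and of Cd14 (1.86 or more) above Tlr3 (1.54 or less). Among the other Toll-like receptor genes listed, Tlr1, Tlr6, Tlr7, Tlr8, Tlr9, Tlr11 and Tlr13 were all too low to be tested, at 0.695 RPKM or less. Tlr11, the partner of TLR12 in profilin recognition, reached 0.335 RPKM at most and was listed at 0 in 7 libraries.

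Genes that work with the members were followed as lists, and most of their differences set germ-free or recipient livers against vendor livers, where library type cannot be told apart. The rule names genes that passed, 17 of these lists in GF against JAX and 18 in GF against TAC. With library type as a term 0 of either passed in limma. Over all genes that term left 237 calls in place of 2939 and 72 in place of 2977. In GF_JAX against JAX 6 of 16 named genes passed with that term (over all genes 687 calls in place of 1638). In GF_TAC against TAC 1 of 18 did (145 in place of 2924). In GF_JAX against GF, where GF_JAX holds libraries of both types, 1 of 4 passed with that term (45 in place of 75). The signs of Cnpy3 (-0.11 log2) and Irf3 (-0.03) in GF against JAX turned with it. Kupffer cell markers rose in the comparisons with vendor livers, with the counts given above, and their part in these lists was not tested.

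Receptor folding and trafficking genes, all 6 of them tested, moved with the groups in several comparisons. Hsp90b1 encodes gp96, the chaperone that most Toll-like receptors need to fold, and Cnpy3 its co-chaperone. Hsp90b1 was at 218 RPKM in JAX, 305 in TAC, 239.9 in GF, 320.1 in GF_JAX and 219 in GF_TAC. It rose in GF_JAX against JAX (0.54 ± 0.10 log2, limma, adjusted p = 0.00186) and fell in GF_TAC against TAC (-0.48 ± 0.10, adjusted p = 0.00340), and its interaction was -1.02 ± 0.14 (adjusted p = 0.00114). Lman1, a cargo receptor between endoplasmic reticulum and Golgi, rose in GF_JAX against GF (0.46 ± 0.10, adjusted p = 0.0441), a call kept in 4 of 22 fits without 1 library. This rise did not pass with library type as a term (limma, adjusted p = 0.143). In GF_TAC both were lower than in GF_JAX, Hsp90b1 by -0.54 (adjusted p = 0.0248) and Lman1 by -0.52 (adjusted p = 0.0277), calls kept in 17 and 16 of 22 fits without 1 library, and for Lman1 not with library type as a term (adjusted p = 0.0770). Cnpy3 rose in GF (0.53 ± 0.13) and in GF_JAX (0.52 ± 0.13) against JAX. Hepatocyte markers moved alongside. In GF_JAX against JAX 8 of 9 rose, where 7.37% of all genes did, and their sum lay between 3455 and 5316 RPKM in JAX and between 4484 and 8243 in GF_JAX. None of the 9 had a positive difference in GF_TAC against TAC, where 2 fell (12.7% of all genes fell, median of the list -0.19 log2). The same held in GF_TAC against GF_JAX, with a median of -0.52 and none past the threshold in limma. Hsp90b1 also fell in GF against TAC (-0.35 ± 0.11, limma, adjusted p = 0.0232), but not with library type as a term (adjusted p = 0.128). There 4 of the 9 hepatocyte markers had a positive difference and 1 fell (13.2% of all genes fell). None of the 9 was at 0 throughout any group, and their part was not tested.

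Of the adaptors and proximal kinases, 20 of 21 genes were tested. In GF against JAX 2 rose and 6 fell, and in GF against TAC again 2 rose and 6 fell (12.3% and 13.2% of all genes fell), with medians of -0.17 and -0.20 log2 beside 0.01 and 0.02 over all genes. Tirap, which bridges TLR2 and TLR4 to MyD88, rose in GF from 6.999 RPKM in JAX to 11.5 (0.65 ± 0.11 log2, limma, adjusted p = 0.000574), and it was also higher in GF_JAX than in JAX (0.53) and in GF_TAC than in TAC (0.37). Ikbke, a kinase of the interferon branch, was at 5.38 RPKM in JAX, 7.75 in TAC, 9.14 in GF, 14.8 in GF_JAX and 12.5 in GF_TAC. It rose in GF_JAX against JAX by 1.30 ± 0.13 (adjusted p = 4.34e-06) and against GF by 0.63 ± 0.13 (adjusted p = 0.0404, kept in 12 of 22 fits without 1 library). With library type as a term both held (adjusted p = 0.000404 and 0.0247). Tbk1, its close relative, fell in GF against JAX (-0.51 ± 0.12, adjusted p = 0.00594) and TAC (-0.52 ± 0.12, adjusted p = 0.00561). No gene of the list passed between the vendors, between the recipients or in GF_TAC against GF.

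NF-κB and IRF factors were all tested: 2 of 8 rose and none fell in GF against JAX, and 2 rose and 1 fell in GF against TAC, where 24% and 24.3% of all genes passed. Irf5, which acts downstream of MyD88, rose from 5.92 RPKM in JAX to 12.99 in GF (1.01 ± 0.24 log2, limma, adjusted p = 0.00604), and Irf3 from 71.1 to 99.8 (0.48 ± 0.12, adjusted p = 0.00879). Rela, the p65 subunit, fell in GF against TAC (-0.37 ± 0.08, adjusted p = 0.00570). Rel rose in GF_JAX against GF, from 0.306 to 1.51 RPKM (0.89 ± 0.20, adjusted p = 0.0470), which 5 of 22 fits without 1 library kept. This rise did not pass with library type as a term (limma, adjusted p = 0.189). Among inhibitors and feedback genes, 17 of 18 tested, 4 rose and 1 fell in GF against JAX, where 11.7% of all genes rose and 12.3% fell. Nfkbia, the NF-κB inhibitor IκBα, rose from 96.5 to 148 RPKM (0.60 ± 0.13, adjusted p = 0.00443), and Sigirr, a receptor that dampens Toll-like receptor signalling, from 23.2 to 38.2 (0.70 ± 0.11, adjusted p = 0.000208). Bcl3 rose in GF_JAX against GF (0.68 ± 0.15, adjusted p = 0.0448, kept in 8 of 22 fits without 1 library), and Dusp1 (0.80 ± 0.21) and Socs3 (0.92 ± 0.28) in GF_JAX against JAX. With library type as a term Dusp1 passed (limma, adjusted p = 0.00223), while Bcl3 (0.0550) and Socs3 (0.0533) did not.

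Of 18 other bacterial sensors 9 were tested. Nlrp6, a cytosolic sensor known from gut epithelium, was at 38.4 RPKM in JAX, 32.4 in TAC and 69.5 in GF, and it rose in GF against both vendors (0.83 ± 0.17 log2, limma, adjusted p = 0.00270, and 1.08 ± 0.17, adjusted p = 0.000578). It was as high in the recipients, at 61.6 and 67.6 RPKM. Naip2, an inflammasome receptor for the rod protein of bacterial secretion systems, fell in GF against JAX from 1.80 to 0.675 RPKM (-0.74 ± 0.16, adjusted p = 0.00386). Pglyrp2, a peptidoglycan amidase of the liver, fell in GF_JAX against JAX (-0.32 ± 0.07, adjusted p = 0.00320). Of 12 genes of LPS binding and clearance 10 were tested. Pltp, a plasma lipid transfer protein related to LBP, fell in GF against JAX from 157.9 to 66.4 RPKM (-1.28 ± 0.33, adjusted p = 0.0110) and in GF_JAX to 66.8 (adjusted p = 0.00795). The scavenger receptors of sinusoidal endothelium Stab1 (0.61 ± 0.16) and Stab2 (0.63 ± 0.12) rose in GF against JAX, and the macrophage receptor Marco in GF_TAC against TAC (1.26 ± 0.28, adjusted p = 0.00445). Of 10 other markers of sinusoidal endothelium 3 rose in GF against JAX (11.7% of all genes rose there), 1 in GF against TAC (11.1%) and 4 in GF_JAX against JAX (7.37%). None of them fell in these comparisons and none was at 0 throughout a group. Their sum was 157 to 216 RPKM in JAX, 168 to 207 in TAC, 193 to 231 in GF, 211 to 246 in GF_JAX and 154 to 208 in GF_TAC, and its part was not tested.

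Cytokine and chemokine genes were low. Il6, Il10 and Ptgs2 were listed at 0 in all 22 libraries, Tnf in 17, and 9 of 17 genes were tested. Cxcl1, a neutrophil chemokine, rose in GF against JAX (1.39 ± 0.45 log2, limma, adjusted p = 0.0321) and TAC (1.51 ± 0.45, adjusted p = 0.0213), and in GF_TAC against TAC (1.81 ± 0.43, adjusted p = 0.00586). Il1b was at 0.351 RPKM in TAC and 2.38 in GF_TAC (1.32 ± 0.39, adjusted p = 0.0210). Icam1 fell in GF, to 6.17 RPKM from 10.7 in JAX and 10.6 in TAC (-0.70 ± 0.19, adjusted p = 0.0143, and -0.71 ± 0.19, adjusted p = 0.0128). A list of immediate early and heat shock genes, which respond to handling, had 13 of its 14 genes tested: in GF against JAX 1 rose and 5 fell (12.3% of all genes fell), in GF against TAC 1 rose and 3 fell (13.2%), in GF_JAX against JAX 1 rose and 3 fell (5.98%), and in GF_TAC against TAC 1 rose and 5 fell (12.7%). Its part in the cytokine values was not tested.

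The genes most like each member over the 22 libraries are given as a description, with Pearson's r of log2(RPKM + 1). For Tlr12 they were Tor3a (0.92), Acot2 (0.92) and Impa2 (0.91), for Tlr5 Scamp5 (0.86), Tgm2 (0.85) and Sh3pxd2a (0.84), and for Ly96 Lancl1 (0.88), Mrps5 (0.86) and Idua (0.86). Lbp was most like Gfra1 (0.89), Fam210b (0.88) and Etf1 (0.86), Myd88 like Rrp36 (0.81), and Nod1 like Hdac5 (0.71). Cd14 was most like Paqr4 (0.78) and Srgn (0.76), Tlr3 like Vezt (0.80) and Tlr2 like Axl (0.69). Libraries share depth and length slope, and Tor3a (r = 0.65), Sh3pxd2a (0.86) and Mrps5 (-0.89) themselves followed the length slope. Between members r was highest for Tlr5 with Tlr12 (0.69) and for Tlr12 with Myd88 (0.57).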

How the data were processed

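The authors deposited 1 table of RPKM values for 22 mouse liver libraries. Per the labels' protocols, poly(A) RNA was isolated from Trizol extracts with NEBNext beads and made into ThruPLEX libraries. Tools named in the submitters' processing notes are Cuffdiff 2.1.1 and Bowtie 1.0.0, on mm9, without their roles. The table holds no counts. Whole reads (tolerance 0.02) and depth were read from the steps between low RPKM values and, for absolute depth, GENCODE M21 transcript lengths (1764 genes). Entries with no gene name (461) or with dates for names (27) of 24397 were left out.

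log2(RPKM + 1) was tested with limma 3.58.1 (R 4.3.3, trend), with all libraries in 1 fit and no covariate, over the 12264 genes that reached 1 RPKM in 4 or more libraries, two-sided, with Benjamini-Hochberg adjustment and a threshold of 0.05. The fit was tested on simulated data. The length slope used 7530 genes with a mean RPKM of 5 to 300. Sequences were matched to RefSeq by symbol. Tables and plots were made with Python 3.11.15, pandas 2.3.3 and matplotlib 3.10.9.

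The members and lists were chosen with earlier results of these data known. All 10 members are named, and of each pathway list up to 3 genes past the threshold per comparison by smallest p (or its highest gene where none passed), and of each tested member up to 3 most correlated genes. Alternatives were the pseudocount, the filter, rescaling, size factors, quality weights, the groups in the fit, the prior, depth or library type as a term, a replicate block and leaving out libraries. A fit without GF_JAX 2, GF_JAX 3 and GF_JAX 5 was chosen after seeing the data.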

Additional observations from a re-analysis of the deposited data

Results flagged for a closer look

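In GF, 1 library stood apart in Tlr12 and in Lbp, and it was GF 4 for both. Its Tlr12 value was 8.566 RPKM against 4.35 to 5.04 in the other 3, a gap of 0.837 of the group's range, and its Lbp value was 121.5 RPKM against 103 to 105, a gap of 0.89 of the range. Of 50 groups of values examined, 2 held such a library, and chance gives about 1 in 20. GF 4 had the lowest depth of its group, about 1419000 reads. Without it, Tlr12 in GF against JAX was -2.37 log2 in place of -2.18, and Lbp in GF against TAC was -0.37 (limma, adjusted p = 0.0532) in place of -0.31.

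The donor difference of Tlr12 in recipients (GF_TAC minus GF_JAX, 0.47 log2) differed from the vendor difference (TAC minus JAX, -1.08 log2) by 1.548 log2, as tested by the interaction in limma (adjusted p = 0.0115). In vendor mice all 4 JAX libraries were above all 4 TAC libraries, while in recipients the groups overlapped.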

How the results depend on the processing

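Tlr12 in GF against JAX, in GF_JAX against JAX and in the interaction passed under all alternatives run. The number of members past the threshold moved elsewhere. In TAC minus JAX it was 0 instead of 1 with a pseudocount of 0.1 or 0.5, without the filter, with only the groups compared, without the variance trend and with relative depth as a term. In GF minus JAX it was 1 instead of 2 with library type as a term. Ly96 made it 3 with only the groups compared, with quality weights and without GF_JAX 1 and GF_JAX 4. In GF minus TAC it was 4 instead of 2 with only the groups compared, with quality weights and without GF_JAX 1 and GF_JAX 4, and 0 with library type. Lbp was gained there also when rescaled to a common sum (TPM). In GF_JAX minus GF it was 0 instead of 1 without the filter, rescaled to a common sum (TPM), with only the groups compared, quality weights, no trend, library type, depth, or without GF_JAX 1 and GF_JAX 4. In GF_TAC minus GF it was 2 instead of 0 with quality weights, and 1 with library type or without GF_JAX 1 and GF_JAX 4. In GF_JAX minus JAX it was 1 instead of 2 with a pseudocount of 0.1, no filter, only the groups compared, no trend or depth, and 4 with TPM and without GF_JAX 1 and GF_JAX 4. In GF_TAC minus TAC it was 0 instead of 3 with library type, 2 without the filter (Ly96 lost, adjusted p = 0.0646) and with TPM (Nod1 lost), and 4 with quality weights (Tlr12 gained), and in the interaction 2 instead of 1 with quality weights. Without 1 library each, the counts ran from 0 to 1 (TAC minus JAX), 2 to 3 (GF minus JAX and GF minus TAC), 0 to 1 (GF_JAX minus GF and GF_TAC minus GF), 1 to 4 (GF_JAX minus JAX) and 2 to 3 (GF_TAC minus TAC), and stayed at 0 in GF_TAC minus GF_JAX and at 1 in the interaction.

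Same-numbered libraries correlated only weakly, at r = -0.12 to 0.15. In TAC minus JAX and in GF_TAC minus GF 3 of 4 libraries correlated best with their own number, and in the other comparisons 0 or 1 did. With the replicate block, the count in GF_JAX minus GF was 0 instead of 1 (Tlr5, adjusted p = 0.0743), and Ly96 in GF_TAC minus TAC missed the threshold (adjusted p = 0.0665).

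Among differences that had passed, the sign turned with library type as a term for Ly96, GF_TAC minus TAC (-0.67), Chuk, GF minus TAC (0.0083), Cnpy3, GF minus JAX (-0.11), Irf3, GF minus JAX (-0.026), GF minus TAC (-0.081) and GF_TAC minus TAC (-0.15), Lman1, GF minus TAC (0.025), N4bp1, GF minus JAX (0.081) and GF_TAC minus TAC (0.11), Sigirr, GF minus TAC (-0.045) and GF_TAC minus TAC (-0.089), and Tmed7, GF minus TAC (0.013). Apoa1, GF_JAX minus JAX, turned to -0.024 with depth as a term. Of the 69 member differences that had not passed, 16 turned with library type, among them 6 of Ly96, 3 of Cd14 (GF minus JAX to -0.55), 3 of Lbp (GF minus JAX to 0.22) and Tlr5, GF_TAC minus TAC (0.38). The cause was not tested. TPM moved the median of all genes by -0.17 log2 in GF minus JAX, where 570 rose and 2561 fell in place of 1430 and 1509, and by -0.20 in GF_JAX minus JAX, where 474 rose and 2050 fell in place of 904 and 734. Over all genes, library type as a term left 237 calls of 2939 (GF minus JAX), 72 of 2977 (GF minus TAC), 687 of 1638 (GF_JAX minus JAX) and 145 of 2924 (GF_TAC minus TAC), while TAC minus JAX had 69 in place of 36. Quality weights gave 5065 in GF minus JAX and 218 in TAC minus JAX, and depth as a term 1541 and 32. Depth limits Tlr2, Tlr3, Tlr4 and Cd14, whose libraries hold 1 to 29 reads.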
